A study of Mus musculus with 19 samples.

Results

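The 9 genes described here encode proteins that silence imprinted loci and retroelements in early mouse cells: the KRAB zinc finger proteins Zfp57, Zfp445 and Zfp809, their corepressor Trim28, the histone methyltransferase Setdb1 with its partner Atf7ip, the histone H3.3 chaperone pair Daxx and Atrx, and Morc3. They were chosen by name for this role, with earlier results of these data known. They were 9 of 54119 genes in the data, and all 9 were among the 14972 genes that passed the filter on low values. RNA was sequenced from 19 libraries in 6 groups. Wild-type XX cells of the LF2 line and wild-type XY cells of the E14 line gave 3 libraries each as mouse embryonic stem cells (mESC) and 3 each as epiblast-like cells (EpiLC). Tet3-/- cells, which are LF2 XX cells labelled as knocked out for Tet3, the gene of an enzyme that oxidises 5-methylcytosine, gave 4 mESC libraries (mutants #1 to #4) and 3 EpiLC libraries (mutants #1, #3 and #4). The mESC were grown in N2B27 medium with inhibitors of GSK3 and of MEK1/2 and with LIF, and the EpiLC were those cells after 5 days in FGF5 plus Activin A with LIF withdrawn. Sex and cell line cannot be told apart in any comparison of XX with XY. The labels do not say that the libraries of a group came from separate cultures, nor how the mutants #1 to #4 were derived, so p-values measure the spread between these libraries, which may be technical.

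KRAB zinc finger proteins bind specific DNA sequences through their zinc fingers and recruit TRIM28 through the KRAB domain. TRIM28 in turn brings in SETDB1, which trimethylates lysine 9 of histone H3, together with HP1 proteins and deacetylases. ZFP57 and ZFP445 act on the methylated allele of imprinting control regions and keep it methylated when the rest of the genome loses methylation, while ZFP809 recognises the primer binding site of murine leukaemia-type retroviruses. DAXX and ATRX deposit histone H3.3 at silent repeats, and MORC3 is an ATPase that acts at the same kind of chromatin.

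Levels are given as scaled TPM: the TPM (abundance per transcript length, with every library summing to the same total) of each gene, divided by a factor per library that sets the median gene equal between libraries. This scaling was used because the abundant non-coding RNA Rn7s1 took up 23.5% to 43.7% of a library's TPM, a share that varied with the group. It assumes that most genes do not change. On TPM without scaling the median of all genes was 0.54 log2 units higher in XY EpiLC than in XY mESC and 0.59 lower in XX than in XY EpiLC, so changes of that size are relative to the typical gene. On TPM rescaled over nuclear protein-coding genes, which leaves Rn7s1 out, these medians were 0.29 and -0.11. The median of the XX transition was 0.14 there. TPM keeps no sequencing depth. Libraries had from 11128 to 13811 genes at 1 TPM or more. A pair of libraries stood apart: XX mESC 2 had a correlation of 0.951 with the rest of its group and Tet3-/- EpiLC #3 one of 0.955, against 0.975 or more for the others. The summed level of 5 mesoderm markers was 94.0 in Tet3-/- EpiLC #3 and 4.65 and 5.41 in the other libraries of that group. The summed level of 12 naive pluripotency markers ranged from 549.6 to 778 in the mESC libraries and from 46.0 to 135 in the EpiLC libraries, and that of 8 fibroblast markers was 8.10 at most. In Tet3-/- mESC the Tet3 level ranged from 0.522 to 0.847, overlapping the 0.656 to 1.24 of XX mESC, and in Tet3-/- EpiLC it ranged from 1.06 to 1.32, below the 1.41 to 1.92 of XX EpiLC. The labels do not say which part of Tet3 is deleted, so its RNA level does not check the genotype.

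Zfp57 and Zfp445, the readers of imprinting control regions, moved in opposite directions from mESC to EpiLC in wild-type cells. Zfp57 (chr17:37001163-37010635, plus strand, GRCm38) fell and Zfp445 (chr9:122844529-122866006, minus strand) rose, both in XX and in XY cells. Zfp809 (chr9:22225714-22243354, plus strand) and Trim28 (chr7:12999114-13031035, plus strand) fell in all 3 genotypes on scaled TPM. The XY fall of Trim28 was not called on TPM without scaling or on TPM rescaled over protein-coding genes. Nor were the XX changes of Zfp57, Zfp445 and Zfp809. To set these 4 genes side by side at the level of DNA, the stretch just upstream of a transcription start of each is shown 5′ to 3′ from RefSeq (GRCm38.p6), with each CpG in capitals. The stretches are chr17:37002275-37002451 for Zfp57, trimmed to the bases outside annotated exons, chr9:122866007-122866256 (minus strand) for Zfp445, chr9:22225462-22225711 for Zfp809 and chr7:13023902-13024151 for Trim28.
Zfp57: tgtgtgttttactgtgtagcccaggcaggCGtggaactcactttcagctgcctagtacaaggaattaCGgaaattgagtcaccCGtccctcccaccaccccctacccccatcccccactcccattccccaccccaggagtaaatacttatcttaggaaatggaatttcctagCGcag
Zfp445: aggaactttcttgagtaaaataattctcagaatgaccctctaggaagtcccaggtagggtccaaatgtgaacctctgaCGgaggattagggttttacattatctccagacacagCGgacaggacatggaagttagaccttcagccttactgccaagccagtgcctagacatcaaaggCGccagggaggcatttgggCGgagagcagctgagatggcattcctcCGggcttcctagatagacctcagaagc
Zfp809: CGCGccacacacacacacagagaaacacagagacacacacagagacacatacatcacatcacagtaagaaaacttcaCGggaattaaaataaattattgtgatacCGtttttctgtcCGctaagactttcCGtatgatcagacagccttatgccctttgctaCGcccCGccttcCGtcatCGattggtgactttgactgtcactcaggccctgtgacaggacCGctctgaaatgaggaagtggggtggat
Trim28: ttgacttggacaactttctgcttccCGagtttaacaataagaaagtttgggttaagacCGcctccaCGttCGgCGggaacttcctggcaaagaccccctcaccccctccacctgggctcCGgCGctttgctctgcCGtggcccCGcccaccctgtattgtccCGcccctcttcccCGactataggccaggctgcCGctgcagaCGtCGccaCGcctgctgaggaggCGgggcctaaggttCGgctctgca

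The printed stretches held 4 CpGs for Zfp57, 5 for Zfp445, 11 for Zfp809 and 17 for Trim28. Over 32851 RefSeq windows of 250 bases upstream of a start the median was 6 CpGs, with quartiles at 2 and 16. The whole window at this Zfp57 start held 7. Zfp57 and Zfp445 thus lay near the median, and Trim28 lay above the upper quartile. Among all 14 windows of the 9 genes the counts ran from 3 at the last start of Zfp57 to 30 at a start of Daxx. Each window was searched on both strands for TGCCGC, which ZFP57 binds when methylated, for the octamer ATGCAAAT and for the E-box CACGTG, none of which holds another. Only the Trim28 window held TGCCGC, as did 8.68% of all windows, and only the Atf7ip window held ATGCAAAT, as did 1.60% of all. No window of the 9 genes held CACGTG, which was in 6.02% of all windows.

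Zfp57 had the widest range of the 9 genes, 7.17-fold between its lowest and highest library. Its level in XY mESC was 120.2, 121 and 144 in libraries 1 to 3, and in XY EpiLC it was 20.0, 25.7 and 24.1. In XX mESC it was 102, 98.1 and 105, and in XX EpiLC it was 62.1, 73.7 and 72.2. In Tet3-/- mESC #1 to #4 it was 87.1, 70.7, 79.6 and 93.8, and in Tet3-/- EpiLC #1, #3 and #4 it was 46.2, 30.5 and 39.7. The mESC and EpiLC libraries did not overlap in any genotype, and the 3 EpiLC groups were also apart from each other, XX highest and XY lowest. The log2 fold change from mESC to EpiLC was -2.42 (SE 0.15, limma adjusted p = 8.96e-10) in XY cells, -1.09 (SE 0.14, limma adjusted p = 4.85e-06) in Tet3-/- cells and -0.55 (SE 0.15, limma adjusted p = 0.00495) in XX cells. Expressed as means, Zfp57 was 5.51-fold lower in XY EpiLC than in XY mESC, 2.13-fold lower in Tet3-/- EpiLC and 1.47-fold lower in XX EpiLC than in the matching mESC. The XY and Tet3-/- changes were also called on TPM without scaling (-1.76 and -1.26). The XX change was called neither there (-0.33, limma adjusted p = 0.451) nor on TPM rescaled over protein-coding genes (-0.37, limma adjusted p = 0.165). In bulk RNA, fewer cells with a transcript and less of it per cell cannot be told apart.

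**Figure D1:**
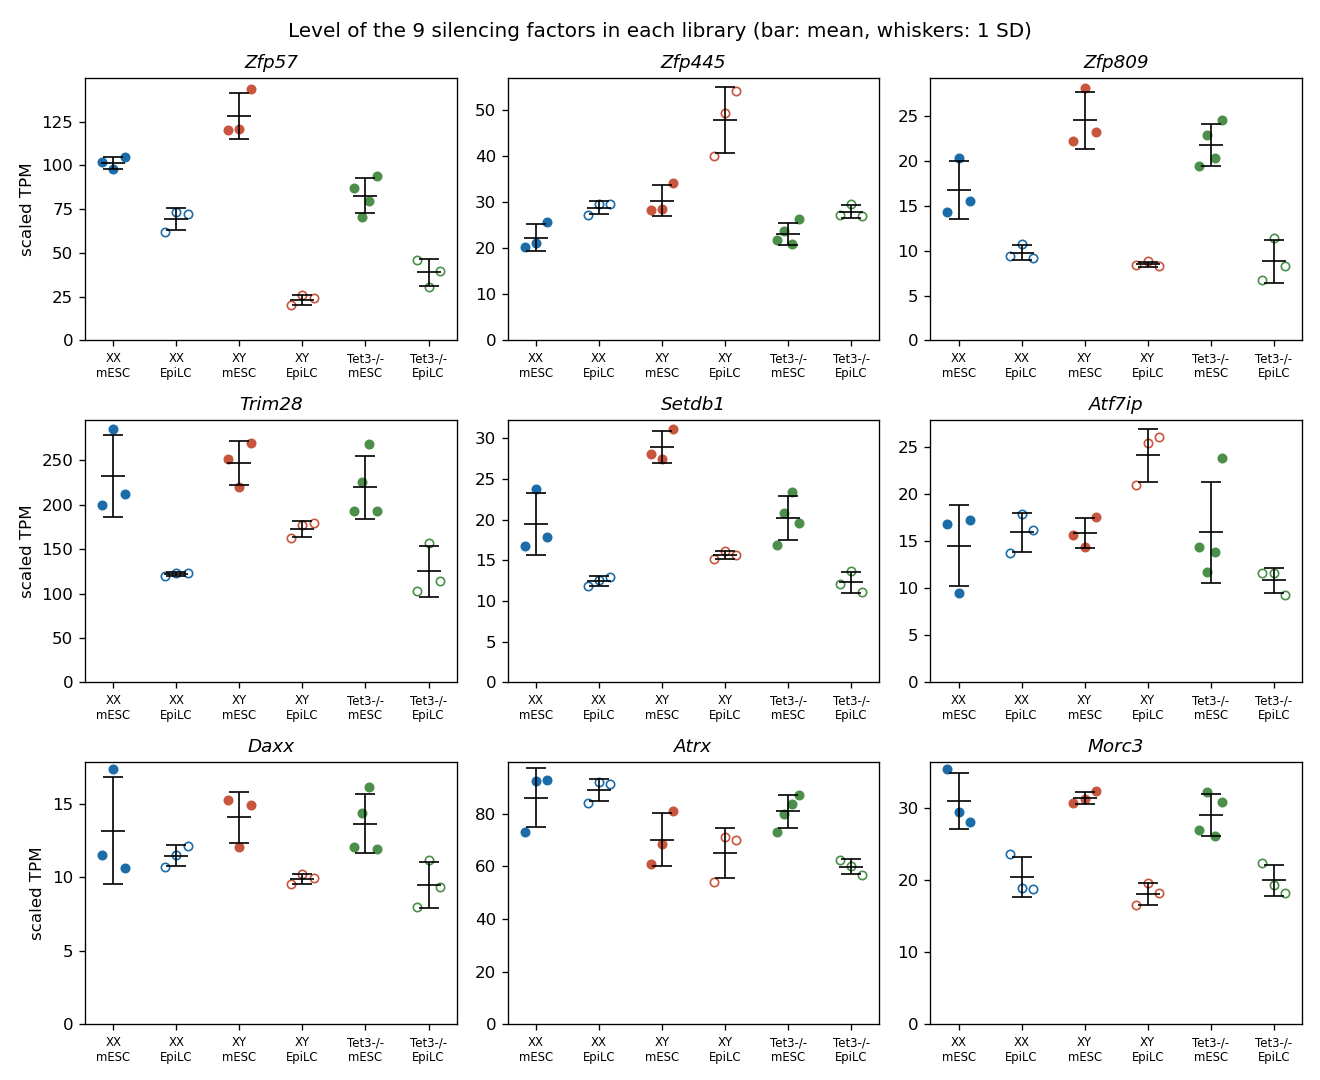
Scaled TPM (y axes, each from 0) of the 9 genes in every library of the 6 groups (x axes). Points are libraries, filled for mESC and open for EpiLC, bars are means and whiskers 1 SD. Zfp57 lies between 20.0 and 25.7 in XY EpiLC and between 62.1 and 73.7 in XX EpiLC, while Zfp445 is highest in XY EpiLC.

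The transition of Zfp57 differed between XX and XY cells. The difference of the log2 fold changes, XX minus XY, was 1.87 (SE 0.21, limma adjusted p = 9.19e-06). It was called under each of the 3 scalings, at 1.43 on TPM without scaling and 1.75 on TPM rescaled over protein-coding genes. Zfp57 in mESC did not pass the test between XX and XY (log2 fold change -0.33, SE 0.15, limma adjusted p = 0.0989), although the libraries did not overlap. In EpiLC it was 2.98-fold higher in XX than in XY (log2 fold change 1.54, SE 0.15, limma adjusted p = 6.84e-07). Pluripotency markers moved with this difference. The summed level of the 12 naive markers ranged from 129 to 135 in XX EpiLC and from 59.6 to 69.1 in XY EpiLC, and that of 10 formative markers from 60.4 to 64.0 and from 275 to 284. Of the naive markers 11 of 12 had a higher mean in XX EpiLC, and of the formative markers 10 of 10 a lower one. None of them was at 0 in every library of either group. Their part in the Zfp57 difference was not tested.

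Zfp57 has 3 annotated RefSeq starts, and its transcripts were assigned to the nearest. The start at 37002525 held 55.2% of its TPM on average over the 19 libraries, from 46.5% to 58.2%. The start at 37003666 held 42.4% on average and the most upstream start, at 37001163, held 2.48%. Of the share at 37002525, retained-intron transcripts of 608 and 590 bases held 18.2% and 9.21% of Zfp57 TPM on average. Its main protein-coding transcripts held 15.3% and 10.9%, and its others at most 0.736% each. A protein-coding transcript at 37003666 held 36.6%. Counting protein-coding transcripts only, the start at 37003666 thus held more than that at 37002525. From mESC to EpiLC in XY cells the log2 ratio of mean levels was -2.48 at the middle start and -2.50 at the last, against -1.62 at the first. In XX cells these ratios were -0.59, -0.49 and -0.74 in the same order. The first start had a mean of 3.00 in the group where it was highest, XY mESC, and no test was made between starts. Salmon divides reads among overlapping transcripts, so the shares are estimates.

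Zfp445 had its lowest mean in XX mESC, at 20.2, 21.1 and 25.6, and rose to 27.2, 29.6 and 29.6 in XX EpiLC. In XY cells it went from 28.3, 28.5 and 34.1 in mESC to 39.9, 49.2 and 54.1 in EpiLC. In Tet3-/- cells it was 21.8, 23.7, 20.8 and 26.2 in mESC and 27.2, 29.5 and 27.0 in EpiLC. The EpiLC libraries were above the mESC libraries in every genotype. The log2 fold change was 0.63 (SE 0.12, limma adjusted p = 4.49e-04) in XY cells, 0.36 (SE 0.12, limma adjusted p = 0.0233) in XX cells and 0.26 (SE 0.12, limma adjusted p = 0.0681) in Tet3-/- cells, where it was called only without mESC #4 (0.32, limma adjusted p = 0.0355). The XY increase was called under all 3 scalings. The XX increase was not called under either other scaling, and it was also lost without XX mESC 2 (0.33, limma adjusted p = 0.0629) and without XX mESC 1, XX EpiLC 2 or XX EpiLC 3, where the adjusted p lay between 0.0679 and 0.096, and with no filter (limma adjusted p = 0.0548). Between lines, Zfp445 was lower in XX than in XY by a log2 fold change of -0.70 in EpiLC (SE 0.12, limma adjusted p = 3.62e-04) and -0.43 in mESC (SE 0.12, limma adjusted p = 0.0149). The mESC call was lost without XX mESC 1 or XY mESC 3 (adjusted p 0.0748 and 0.0789). Subtracting the XY from the XX transition of Zfp445 gave -0.27 (SE 0.18, limma adjusted p = 0.291) and was not called.

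The ratio of Zfp445 to Zfp57 within a library does not depend on scaling. In the 3 mESC groups together it ran from 0.199 to 0.335. In XX EpiLC it was 0.401 to 0.438, in Tet3-/- EpiLC 0.588 to 0.966 and in XY EpiLC 1.92 to 2.25. Zfp445 RNA thus exceeded Zfp57 RNA, per transcript length, in the 3 XY EpiLC libraries and in none of the other 16. The highest Tet3-/- value, 0.966, was that of EpiLC #3, the library with the raised mesoderm markers. These ratios are a description and were given no test.

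**Figure D2:**
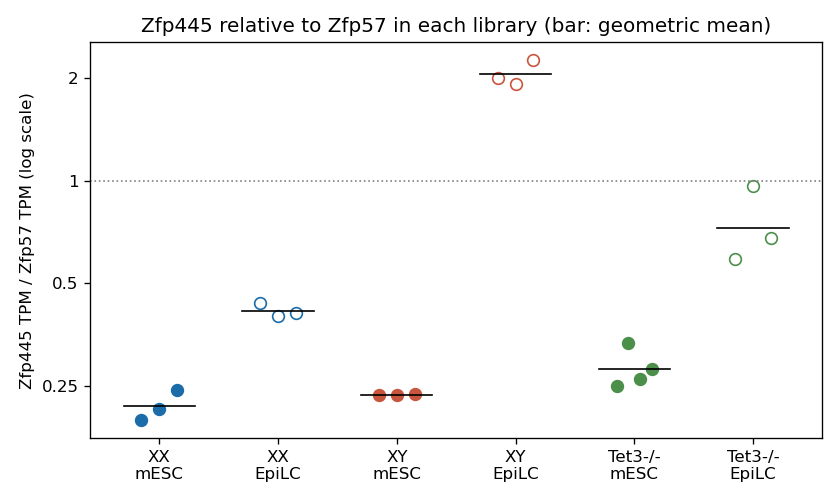
Ratio of Zfp445 TPM to Zfp57 TPM (y axis, log scale) in each library of the 6 groups (x axis); bars are geometric means and the dotted line is a ratio of 1. Geometric means were 0.218 in XX mESC, 0.236 in XY mESC and 0.280 in Tet3-/- mESC, and 0.416, 2.05 and 0.728 in the matching EpiLC.

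Zfp809, the repressor of retroviral elements, fell in all 3 genotypes. In XX cells its level was 14.3, 20.4 and 15.5 in mESC and 9.42, 10.7 and 9.22 in EpiLC. In XY cells it was 22.2, 28.1 and 23.2 in mESC and 8.36, 8.80 and 8.29 in EpiLC, and in Tet3-/- cells 19.5, 22.8, 20.3 and 24.5 in mESC and 6.69, 11.4 and 8.32 in EpiLC. Every mESC library, at 14.3 or more, was above every EpiLC library, at 11.4 or less. The log2 fold changes were -1.42 in XY (SE 0.16, limma adjusted p = 1.47e-06), -1.24 in Tet3-/- (SE 0.15, limma adjusted p = 3.06e-06) and -0.71 in XX cells (SE 0.16, limma adjusted p = 0.00153). Only the Tet3-/- change was called on TPM without scaling (-1.38), and the XX change was not called on TPM rescaled over protein-coding genes either (limma adjusted p = 0.0618). In mESC Zfp809 was lower in XX than in XY (log2 fold change -0.53, SE 0.16, limma adjusted p = 0.018), a call lost without XX mESC 1, XX mESC 3 or XY mESC 2 (adjusted p 0.0647 to 0.0919). The XX minus XY difference of its transitions was 0.72 (SE 0.23, limma adjusted p = 0.0301). It was lost under both other scalings and without any one of 6 libraries (XX EpiLC 2, XX mESC 1, XX mESC 3, XY EpiLC 1, XY EpiLC 3 or XY mESC 2), where the adjusted p lay between 0.0575 and 0.0799.

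Trim28, the corepressor that the zinc finger proteins share, had the highest level of the 9 genes in every group. It was 199.6, 286 and 213 in XX mESC and 119, 123 and 123 in XX EpiLC. In XY cells it was 252, 221 and 269 in mESC and 162, 177 and 179 in EpiLC, and in Tet3-/- cells 193, 225, 268 and 193 in mESC and 103, 157 and 114 in EpiLC. The highest XX mESC value was that of library 2 and the highest Tet3-/- EpiLC value that of #3, the 2 libraries that stood apart. No EpiLC library reached the mESC libraries of its genotype. The log2 fold change was -0.91 in XX (SE 0.17, limma adjusted p = 3.08e-04), -0.82 in Tet3-/- (SE 0.16, limma adjusted p = 3.78e-04) and -0.51 in XY cells (SE 0.17, limma adjusted p = 0.0193). Without XX mESC 2 the XX value was -0.75 (limma adjusted p = 0.00164). The XY value turned to 0.16 on TPM without scaling (limma adjusted p = 0.737), so its direction is relative to the typical gene of XY cells. The XY call was also lost without XY EpiLC 1, XY mESC 1 or XY mESC 3 (adjusted p 0.053 to 0.0662) and on TPM rescaled over protein-coding genes (-0.18, limma adjusted p = 0.548). The XX call was lost without scaling (-0.69, limma adjusted p = 0.194). Over protein-coding transcripts of Trim28 alone the log2 ratios of mean levels were -0.99 in XX, -0.79 in Tet3-/- and -0.76 in XY cells, untested. Those transcripts held 72.0% of Trim28 TPM in XY mESC and 61.1% in XY EpiLC.

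Setdb1 (chr3:95323525-95357202, minus strand), which writes the H3K9 mark, fell in all 3 genotypes, and Atf7ip (chr6:136506167-136610862, plus strand), which stabilises SETDB1, rose in XY cells and did not pass the test in the others. Setdb1 was 28.1, 27.5 and 31.2 in XY mESC and 15.1, 16.2 and 15.7 in XY EpiLC, which gave a log2 fold change of -0.84 (SE 0.13, limma adjusted p = 3.89e-05). It was 16.7, 23.8 and 17.8 in XX mESC and 11.8, 12.6 and 13.0 in XX EpiLC (-0.59, SE 0.13, limma adjusted p = 0.00115). Tet3-/- libraries ran from 16.9 to 23.3 in mESC and from 11.1 to 13.7 in EpiLC (-0.66, SE 0.12, limma adjusted p = 1.97e-04). None of the 3 falls of Setdb1 was called on TPM without scaling, where they were -0.20 in XY, -0.38 in XX and -0.82 in Tet3-/- cells. The XX fall was not called on TPM rescaled over protein-coding genes either (-0.43, limma adjusted p = 0.101). In mESC Setdb1 was lower in XX than in XY (log2 fold change -0.56, SE 0.13, limma adjusted p = 0.00317).

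Atf7ip was 15.7, 14.4 and 17.6 in XY mESC and 20.9, 25.4 and 26.1 in XY EpiLC. Its log2 fold change there was 0.57 (SE 0.23, limma adjusted p = 0.0433), and the call was lost without XY EpiLC 2, XY EpiLC 3, XY mESC 1 or XY mESC 2 (adjusted p 0.0909 to 0.121), and with no filter (limma adjusted p = 0.0992). The rise without scaling was 1.23 (limma adjusted p = 0.00728). In XX cells Atf7ip was 16.9, 9.55 and 17.2 in mESC and 13.8, 17.9 and 16.3 in EpiLC, which overlapped (0.16, limma adjusted p = 0.583), and the low value was that of XX mESC 2. In Tet3-/- cells it ran from 11.8 to 23.9 in mESC and from 9.33 to 11.6 in EpiLC (-0.47, SE 0.21, limma adjusted p = 0.0704). Without mESC #2 that value was -0.59 and called (limma adjusted p = 0.0323). The ratio of Setdb1 to Atf7ip was 1.78 to 1.91 in XY mESC and 0.600 to 0.722 in XY EpiLC. In XX cells it was 0.992 to 2.49 in mESC and 0.706 to 0.860 in EpiLC. In Tet3-/- cells it was 0.819 to 1.77 in mESC and 1.04 to 1.19 in EpiLC, which overlapped. These ranges do not depend on scaling.

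Of the H3.3 pair, Atrx (chrX:105797615-105929403, minus strand) was among the 3 highest of the 9 genes in every group and Daxx (chr17:33909414-33915590, plus strand) among the 2 lowest. Atrx was 84.1, 91.9 and 91.1 in XX EpiLC, 54.2, 71.2 and 70.0 in XY EpiLC and 62.4, 60.3 and 56.8 in Tet3-/- EpiLC. It did not pass the test between mESC and EpiLC in XX (0.05) or XY cells (-0.11), where the libraries overlapped. In Tet3-/- cells it fell from between 72.9 and 87.1 in mESC, with a log2 fold change of -0.43 (SE 0.12, limma adjusted p = 0.00774). Daxx ranged from 8.00 to 17.3 over all libraries. Its log2 fold change was -0.48 in Tet3-/- cells (SE 0.15, limma adjusted p = 0.013), -0.46 in XY cells (SE 0.16, limma adjusted p = 0.0248) and -0.16 in XX cells (SE 0.16, limma adjusted p = 0.446). Daxx without scaling was at 0.16 in XY cells (limma adjusted p = 0.716), and neither of its calls nor that of Atrx held there. On TPM rescaled over protein-coding genes the XY value of Daxx was -0.17 (limma adjusted p = 0.56) and the Tet3-/- call of Atrx was lost (limma adjusted p = 0.0615). Without Tet3-/- EpiLC #1 the Tet3-/- value of Daxx was -0.38 (limma adjusted p = 0.0763). Its XY call was lost without XY EpiLC 1, XY EpiLC 3, XY mESC 1 or XY mESC 3 (adjusted p 0.056 to 0.0874), and with no filter on low values (limma adjusted p = 0.0572).

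Morc3 (chr16:93832121-93876073, plus strand) fell in all 3 genotypes. Its libraries lay between 26.2 and 35.4 in mESC and between 16.5 and 23.6 in EpiLC, so the states did not overlap even across genotypes. The log2 fold change was -0.77 in XY (SE 0.12, limma adjusted p = 5.45e-05), -0.58 in XX (SE 0.12, limma adjusted p = 7.83e-04) and -0.52 in Tet3-/- cells (SE 0.11, limma adjusted p = 9.41e-04). Only the Tet3-/- fall was called without scaling (-0.68, limma adjusted p = 0.0472), and the XX and XY falls were not called on TPM rescaled over protein-coding genes (limma adjusted p = 0.0872 and 0.0501).

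**Figure D3:**
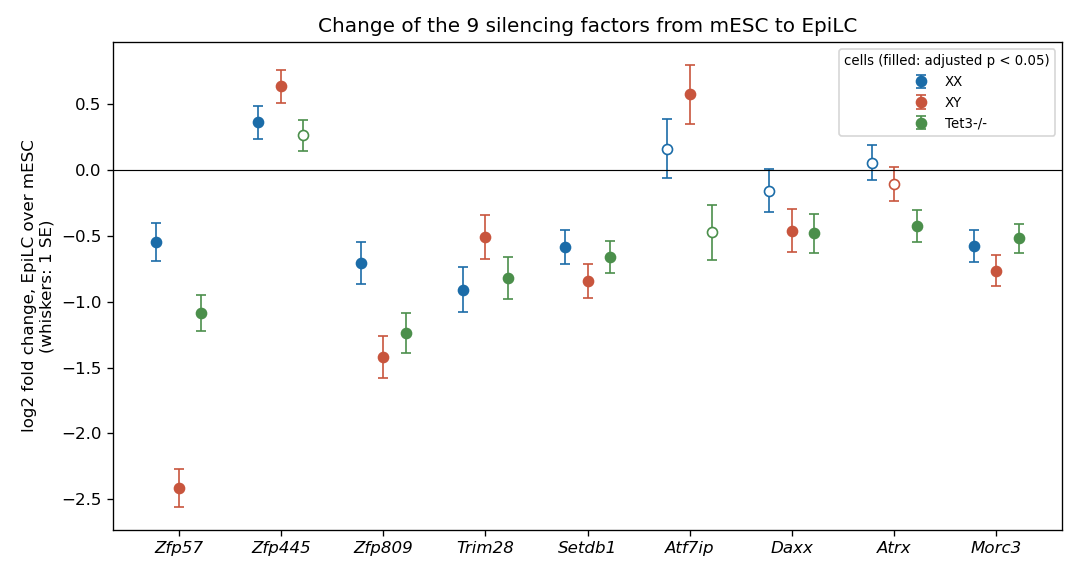
Log2 fold change from mESC to EpiLC (y axis) of the 9 genes (x axis) in XX, XY and Tet3-/- cells, with whiskers of 1 SE; filled points passed the test. Zfp57 spans -0.55 to -2.42 between genotypes, while Setdb1 and Morc3 lie between -0.52 and -0.84 in all of them.

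Counted together, 6 of the 9 genes were called in the XX transition (1 higher, 5 lower), where 50.4% of all tested genes were called, 24.5% higher and 25.9% lower. In the XY transition 8 were called (2 higher, 6 lower) against 51.4% of all genes, 26.4% higher and 25.0% lower. In the Tet3-/- transition 7 were called, all lower, against 52.4% of all genes, 25.2% higher and 27.2% lower. The libraries of the states did not overlap for 6, 8 and 9 of the 9 genes, and for 61.2%, 64.7% and 50.3% of all genes. The median log2 fold change of the 9 genes was -0.55, -0.51 and -0.52, against -0.02, -0.00 and 0.00 over all genes. Since about 1 gene in 2 was called in each transition, a call by itself does not set these genes apart. On TPM without scaling 0, 3 and 4 of them were called, against 31.3%, 50.5% and 35.1% of all genes.

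**Figure D4:**
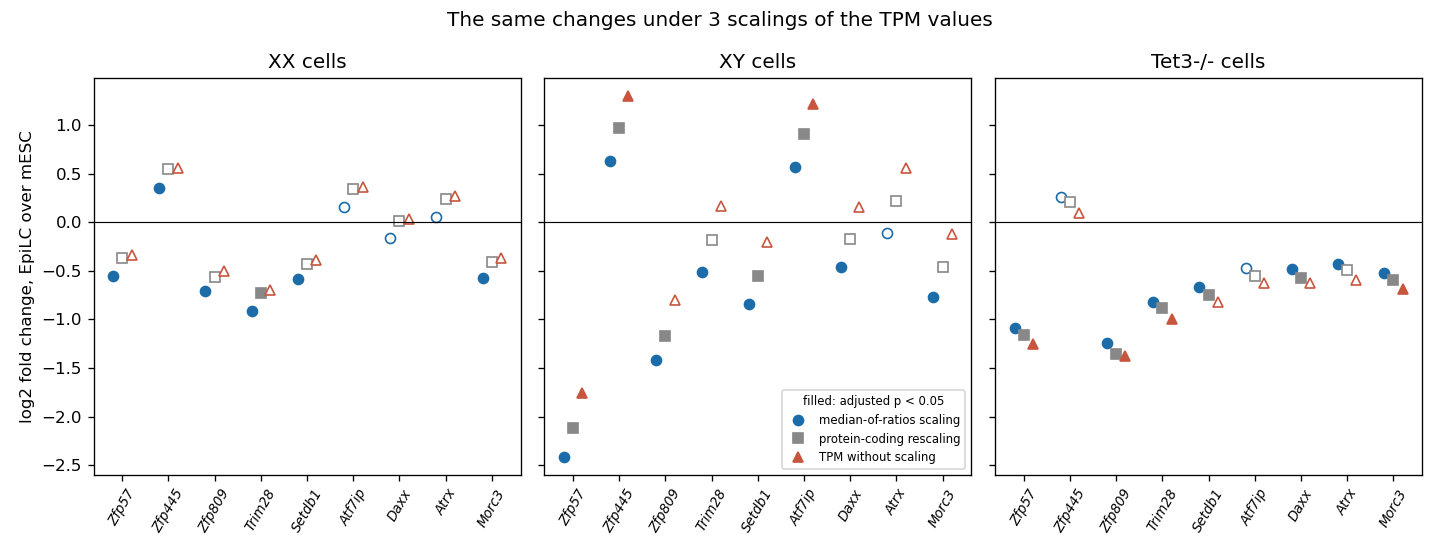
Log2 fold change from mESC to EpiLC (y axis) of the 9 genes (x axis) in XX, XY and Tet3-/- cells under 3 scalings of the same TPM values; filled points passed the test. In XY cells every point moves up when scaling is left out, and Trim28, Daxx and Atrx cross 0; Zfp57, Zfp445 and Atf7ip keep their direction and their call.

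Loss of Tet3 was compared with the XX wild type of the same line, which asks whether TET3 bears on these genes in either state. In mESC 0 of the 9 genes were called by limma, where 3.18% of all genes were (1.77% higher and 1.41% lower), and 2 had an unadjusted p under 0.05, as did 14.9% of all genes. These were Zfp57 (log2 fold change -0.30, limma adjusted p = 0.316) and Zfp809 (0.37, limma adjusted p = 0.234). For the other 7 the 95% interval of the log2 fold change stayed within -0.41 and 0.57. Without XX mESC 2 Zfp809 was called, at 0.51 (limma adjusted p = 0.0456). Libraries of the 2 groups did not overlap for 1 of the 9 genes, Zfp57, and for 12.4% of all genes. None was called on TPM without scaling.

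In EpiLC 2 of the 9 genes were called, both lower in Tet3-/- than in XX, against 5.46% of all genes called, 2.5% higher and 2.97% lower. Libraries did not overlap for 3 of the 9, Zfp57, Atrx and Atf7ip, and for 29.0% of all genes. For Atf7ip a transcript of 177 bases, Atf7ip-206, held 28.0% ± 2.96% of its TPM in XX EpiLC and 6.77% ± 11.7% in Tet3-/- EpiLC (SD, n = 3 each). The part of that transcript in the separation was not tested. Zfp57 was 1.79-fold lower (log2 fold change -0.84, SE 0.15, limma adjusted p = 0.00291), and its lowest value, 30.5, was in #3. Without that library, which held the mesoderm markers, the log2 fold change was -0.68 (limma adjusted p = 0.00929). Zfp57 was not called when only these 2 groups were fitted (limma adjusted p = 0.0633) or on TPM without scaling (-0.95, limma adjusted p = 0.18). Atrx was 1.49-fold lower (log2 fold change -0.57, SE 0.13, limma adjusted p = 0.0178). Atrx lies on the X chromosome, and the part of X copy number or X inactivation was not tested. Its call was lost under both other scalings and without Tet3-/- EpiLC #4, XX EpiLC 2 or XX EpiLC 3 (adjusted p 0.055 to 0.0805). Over the protein-coding transcripts of Atrx alone the log2 ratio of mean levels was smaller, at -0.34, and was not tested. Retained-intron transcripts held 36.9% of Atrx TPM in XX EpiLC and 28.7% in Tet3-/- EpiLC. Zfp445, Trim28, Setdb1 and Morc3 had log2 fold changes between -0.04 and 0.01, with 95% intervals within -0.35 and 0.37. Formative markers differed too, at a sum of 82.0 to 139.6 in Tet3-/- EpiLC against 60.4 to 64.0 in XX EpiLC, and naive markers at 46.0 to 75.6 against 129 to 135; their part was not tested.

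The difference of transitions, Tet3-/- minus XX, was called for 0 of the 9 genes by limma, against 0.661% of all genes (0.247% higher, 0.414% lower). An unadjusted p under 0.05 was reached by 11.0% of all genes and by 3 of the 9: Zfp57 (-0.54, 95% interval -0.96 to -0.11), Zfp809 (-0.53) and Atrx (-0.48). Their adjusted p-values lay between 0.298 and 0.355. With the 2 libraries that stood apart left out together, an alternative added after the data were seen, Zfp809 (-0.86, limma adjusted p = 0.00951) and Daxx (-0.64, limma adjusted p = 0.0462) were called. The test of the Zfp57 transitions thus did not call a difference between Tet3-/- and XX cells, although its EpiLC level was called lower.

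Between the wild-type lines 3 of the 9 genes were called in mESC, all lower in XX, against 31.3% of all genes called, 17.7% higher and 13.6% lower. They were Zfp445, Zfp809 and Setdb1, with the values given above, and libraries did not overlap for 4 of the 9 genes and for 37.3% of all genes. None of the 3 was called under either other scaling or when only these 2 groups were fitted. In EpiLC 4 were called against 33.8% of all genes (17.2% higher, 16.6% lower): Zfp57 (1.54) and Atrx (0.45) higher and Zfp445 (-0.70) and Trim28 (-0.50) lower in XX. Atrx lies on the X chromosome, whose number differs between XX and XY cells, and the part of that number was not tested. Over protein-coding transcripts alone the log2 ratios of mean levels were 1.48 for Zfp57, 0.30 for Atrx, -0.78 for Zfp445 and -0.22 for Trim28, untested. Protein-coding transcripts held 74.2% of Trim28 TPM in XX EpiLC and 61.1% in XY EpiLC. Libraries did not overlap for 8 of the 9 genes in EpiLC, and for 65.0% of all genes. Zfp57 and Zfp445 were called under all 3 scalings, whereas Atrx turned to -0.28 on TPM without scaling (limma adjusted p = 0.517) and was not called on TPM rescaled over protein-coding genes (limma adjusted p = 0.281) or without XY EpiLC 1. Trim28 (limma adjusted p = 0.0316) was also called without scaling (-1.24, limma adjusted p = 0.0159), where Setdb1 (-1.01, limma adjusted p = 0.0236) and Atf7ip (-1.28, limma adjusted p = 0.00814) were called too, which made 1 higher and 4 lower. Trim28 was not called on TPM rescaled over protein-coding genes (limma adjusted p = 0.0621) and lost its call with no filter (limma adjusted p = 0.0748) and without any one of 5 EpiLC libraries (XX 1, XX 2, XX 3, XY 2 or XY 3). The difference of transitions, XX minus XY, was called for 2 of the 9 genes, Zfp57 and Zfp809, against 23.7% of all genes (10.9% higher, 12.8% lower).

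In order of level, per transcript length, Trim28 came first in every group. Zfp57 came second in the 3 mESC groups, ahead of Atrx, although the libraries of Zfp57 and Atrx overlapped in Tet3-/- mESC. In EpiLC Atrx was second in all 3 genotypes. Zfp57 was then the third in XX and Tet3-/- cells and the fifth in XY cells, below Zfp445 and next to Atf7ip, whose libraries it overlapped. The lowest gene was Daxx in the 3 mESC groups and Zfp809 in the 3 EpiLC groups, but the libraries of Daxx and the next gene, Atf7ip, overlapped in each mESC group, as did those of Zfp809 and Daxx in Tet3-/- EpiLC.

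Other genes of the pathway were taken from lists, and they did not move as a block. For each list below, the matching shares over all genes were 24.5% rising and 25.9% falling in XX cells. They were 26.4% and 25.0% in XY cells, and 25.2% and 27.2% in Tet3-/- cells. Without scaling 31.3%, 50.5% and 35.1% of all genes were called in the XX, XY and Tet3-/- transitions. Of 13 TRIM28 partners and HP1 genes, 3 rose and 3 fell in the XX transition, 5 rose and 4 fell in XY and 3 rose and 3 fell in Tet3-/- cells. Cbx5, which encodes HP1 alpha, rose in all 3, with log2 values of 1.21, 1.14 and 1.20 (limma adjusted p = 3.93e-05, 6.5e-05 and 1.79e-05). Trim24, a relative of Trim28, fell in all 3, by -1.42, -1.13 and -1.36 (limma adjusted p = 3.25e-06, 3.36e-05 and 2.16e-06). Of the remodeller and deacetylase subunits, Chd4 rose in XX, XY and Tet3-/- cells (0.97, 0.72 and 0.60, limma adjusted p = 3.23e-06, 7e-05 and 2.05e-04), and Hdac2 fell in them (-1.04, -0.65 and -0.61, limma adjusted p = 6.79e-07, 9.7e-05 and 8.85e-05). Without scaling the Tet3-/- rise of Chd4 (limma adjusted p = 0.339) and the XY falls of Trim24 (limma adjusted p = 0.125) and Hdac2 were not called. The list median was -0.07, -0.01 and -0.10, against -0.02, -0.00 and 0.00 over all genes. Without scaling the counts were 2 rising and 2 falling, 5 and 0, and 1 and 3.

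Of 7 other genes of H3K9 methylation, 2 rose and 1 fell in XX and in XY cells, and 1 rose and 1 fell in Tet3-/- cells. Suv39h1, which trimethylates H3K9 in constitutive heterochromatin, rose from 8.27 ± 2.02 to 26.6 ± 1.63 (SD, n = 3) in XY cells, where its log2 fold change was 1.60 (limma adjusted p = 2.87e-08). In XX cells it rose by 0.41 (limma adjusted p = 0.0134), and the XX minus XY difference was -1.18 (limma adjusted p = 1.86e-04). Ehmt1, an H3K9 dimethyltransferase, rose by 1.24 in XY, 0.58 in XX and 0.50 in Tet3-/- cells (limma adjusted p = 1.67e-07, 4.83e-04 and 9.74e-04). Setdb1 fell in each genotype in which Ehmt1 rose. Without scaling 0 of the 7 rose in XX and Tet3-/- cells and 2 in XY cells, and 1 fell, in Tet3-/- cells. List medians were 0.11, 0.02 and 0.04 in XX, XY and Tet3-/- cells.

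The HUSH complex, which recruits SETDB1 to retroelements, was called in both directions, with Pphln1 higher and Fam208a lower in every genotype. Of its 4 genes, 2 rose and 1 fell in XX and XY cells, and 1 rose and 1 fell in Tet3-/- cells. Pphln1 went from 7.01 ± 0.69 to 34.3 ± 0.415 (SD, n = 3) in XY cells (log2 fold change 2.14, limma adjusted p = 1.15e-08), and rose by 0.66 in XX and 1.36 in Tet3-/- cells (limma adjusted p = 0.00249 and 1.01e-06). Fam208a, which encodes the subunit TASOR, fell, with values of -1.37, -0.70 and -0.92 in XY, XX and Tet3-/- cells (limma adjusted p = 3.99e-06, 0.00228 and 1.2e-04). Pphln1 was also higher in Tet3-/- than in XX EpiLC (0.83, limma adjusted p = 0.00548), at 27.0 ± 9.92 against 14.1 ± 0.441 (SD, n = 3 each). That difference was not called on TPM rescaled over protein-coding genes (limma adjusted p = 0.154). Medians of the 4 were 0.15, 0.23 and -0.00 in XX, XY and Tet3-/- cells. Without scaling none of the 4 was called in XX cells, 2 rose in XY cells and 1 rose and 1 fell in Tet3-/- cells, and the Pphln1 difference in EpiLC was not called (limma adjusted p = 0.514).

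Of 8 genes for H3.3 and its other chaperones, 3 rose and 1 fell in XX, 1 rose and 1 fell in XY and 2 rose and 1 fell in Tet3-/- cells. Asf1b, a chaperone of newly made H3, fell in all 3 (-0.98, -1.30 and -1.16 in XX, XY and Tet3-/- cells, limma adjusted p = 0.0133, 0.00191 and 0.00257), though without scaling the XX and XY values were not called (limma adjusted p = 0.209 and 0.17). Without scaling 2 of the 8 rose and 0 fell in XX, 5 rose and 0 fell in XY, and 0 rose and 1 fell in Tet3-/- cells. The median of the 8 was 0.38, 0.19 and 0.23. Of 4 genes that maintain or protect DNA methylation, 2 fell in XX and Tet3-/- cells and 1 in XY cells. Dppa3, which protects imprints in the zygote, fell, with values of -4.16, -4.71 and -4.80 in XX, XY and Tet3-/- cells (limma adjusted p = 2.88e-05, 7e-06 and 2.53e-06), although its XY mESC libraries varied widely (45.0 ± 55.0, SD, n = 3). Dnmt1, the maintenance methyltransferase, fell in XX (-0.54, limma adjusted p = 0.0409) and Tet3-/- cells (-0.65, limma adjusted p = 0.0107), but in neither without scaling. The median of the 4 was -0.57, -0.45 and -0.50.

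Of 5 tested genes among the other KRAB repressors and MORC genes, 2 fell in XX, 1 rose and 1 fell in XY, and 1 rose and 2 fell in Tet3-/- cells. Morc1, a germline silencer of transposons, fell from 30.5 ± 4.13 to 0.196 ± 0.0443 (SD, n = 3) in XY cells and from 16.2 ± 0.621 to 1.42 ± 0.108 (SD, n = 3) in XX cells. Its log2 fold changes were -4.71, -2.82 and -3.07 in XY, XX and Tet3-/- cells (limma adjusted p = 3.01e-15, 2.53e-12 and 1.96e-13), and the XX minus XY difference was 1.89 (limma adjusted p = 1.68e-07). These falls of Morc1 were called under all 3 scalings. The median of the 5 was -0.60, -0.14 and 0.19 in XX, XY and Tet3-/- cells.

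The genes of imprinted domains, on which Zfp57 and Zfp445 act, were called in both directions. Of 27 tested, 16 rose and 4 fell in XX, 14 rose and 3 fell in XY and 15 rose and 3 fell in Tet3-/- cells, with list medians of 0.82, 0.40 and 0.44. Over all genes 24.5% rose and 25.9% fell in XX, 26.4% and 25.0% in XY, and 25.2% and 27.2% in Tet3-/- cells. The medians over all genes were -0.02, -0.00 and 0.00. Without scaling the counts of the 27 were 14 and 2, 17 and 0, and 10 and 3. The median of all genes was then 0.14, 0.54 and -0.13, and 31.3%, 50.5% and 35.1% of all genes were called. Peg3 rose in all 3, for example from 2.41 ± 0.493 to 28.6 ± 3.54 (SD, n = 3) in XY cells (log2 fold change 3.12, limma adjusted p = 1e-09). Nnat rose by 4.29 in XX and 4.04 in Tet3-/- cells (limma adjusted p = 1.58e-14 and 1.13e-14), and the XX minus XY difference of Nnat was 3.32 (limma adjusted p = 2.84e-10). In XY cells Nnat rose by 0.98 (limma adjusted p = 3.91e-07). Plagl1 fell in all 3, with values of -2.76 in XX and -0.67 in XY cells (limma adjusted p = 1.12e-10 and 6.68e-04). In XY mESC its level was already low, at 0.824 ± 0.103 (SD, n = 3), and its XY fall was not called without scaling. In Tet3-/- cells the level of Plagl1 went from 23.5 ± 4.26 (SD, n = 4) to 2.04 ± 0.105 (SD, n = 3; limma adjusted p = 1.24e-11). Between the lines in EpiLC, 9 of the 27 were higher and 3 lower in XX, among them H19 (5.34, limma adjusted p = 7.35e-07) and Grb10 (-1.80, limma adjusted p = 4.32e-07). Over all genes 17.2% were called higher and 16.6% lower in XX EpiLC. Without scaling the balance of the 27 turned round, to 5 higher and 13 lower, where the median of all genes was -0.59. It was 8 and 3 on TPM rescaled over protein-coding genes. Between Tet3-/- and XX cells 1 of the 27 was higher and 1 lower in mESC, and 2 were higher and 2 lower in EpiLC. Over all genes 3.18% were called in mESC and 5.46% in EpiLC. Without scaling 1 of the 27 was higher and 0 lower in mESC and none was called in EpiLC. The TPM values do not separate the parental alleles, so they do not show whether an imprint was kept. Of 14 Zscan4 and related early embryo genes, which mark a rare early-embryo-like state of mESC, only Zscan4f passed the filter on low values, and limma called it in none of the comparisons.

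The genes whose pattern over the 19 libraries was most like that of each zinc finger gene were found among 7568 protein-coding genes with a mean of 5 scaled TPM or more. For Zfp57 they were Gpr107 (Pearson r 0.973), Zbtb38 (0.962) and Dnah8 (0.961). For Zfp445 they were Zfp946 (0.959), Srrm2 (0.939) and Otud5 (0.937). For Zfp809 they were Tdh (0.971), Epp13 (0.969) and Dlc1 (0.964). The 19 points share 6 groups and fall mainly into the mESC and EpiLC states, and these correlations are a description with no test.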

How the data were processed

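Stranded total RNA depleted of ribosomal RNA was sequenced in 19 libraries. The authors deposited TPM per transcript; FastQC 0.11.7, Trimmomatic 0.35, Salmon 1.1.0 and GRCm38 are named in the submitters' processing notes. Depth is unknown.

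TPM of 140948 transcripts was summed per gene with GENCODE M21 (1096 transcripts, at most 0.215% of TPM, did not match) and divided by median-of-ratios factors. The 14972 genes that reached 1 TPM in 3 or more libraries were fitted as log2(scaled TPM + 1) with limma 3.58.1 in R 4.3.3 (all 19 libraries, 6 groups, eBayes with trend), and called at a Benjamini-Hochberg adjusted p under 0.05 within each contrast. Fold changes are on that scale, which understates low genes. The fit was tested on simulated data. The labels give the Tet3-/- mutants the same numbers in both states, which pairs them; deviations of the pairs #1, #3 and #4 correlated at 0.2164, 0.223 and -0.0942. All 9 genes are named; of each list, up to 2 called genes per direction, taken by size of change and averaging 5 or more in some group, could be named, then also given in the other genotypes. Members and lists were chosen with earlier results of these data known. Alternatives were 2 other scalings (none, and over nuclear protein-coding genes), a pseudocount of 0.1, no filter, TPM of at least 5, fits of only the groups compared, a replicate block, and each library left out. Tables and plots used Python 3.11.15, pandas and matplotlib.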

Additional observations from a re-analysis of the deposited data

Results flagged for a closer look

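Among the 9 genes, 2 had transitions from mESC to EpiLC that differed between the XX and XY cells by a test of the difference itself (limma over all genes). For Zfp57 the XX minus XY difference of the log2 fold changes was 1.87 (SE 0.21, adjusted p = 9.19e-06), with a fall in all 3 XX and all 3 XY EpiLC libraries below every matching mESC library. For Zfp809 it was 0.72 (SE 0.23, adjusted p = 0.0301), again with no overlap between the states in either line. Unlike that of Zfp57, the Zfp809 difference was not called without scaling (limma adjusted p = 0.712). It was not called on TPM rescaled over protein-coding genes either (limma adjusted p = 0.243), and was lost without any one of 6 libraries. In the group of 4 libraries, Tet3-/- mESC, no library of any of the 9 genes lay far enough from the others to be singled out by Dixon's test, and the groups of 3 were not tested.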

How the results depend on the processing

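Of 1269 values (81 results of the 9 genes under each alternative), 1167 kept their direction and their side of the threshold, 81 lost a call, 18 gained one and 3 changed sign where the reported or the alternative value was called. Those 3 were on TPM without scaling: Trim28 0.16 and Daxx 0.16 in the XY transition, and Atrx -0.28 for XX against XY EpiLC.

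The number of genes called moved with scaling and with the groups fitted. On TPM without scaling it was 0 (XX), 3 (XY) and 4 (Tet3-/-) for the transitions, 0 for Tet3-/- against XX EpiLC, 0 and 5 for XX against XY (mESC and EpiLC) and 1 for the difference XX minus XY. The shares of all genes called there were, in the same order, 31.3%, 50.5%, 35.1%, 1.08%, 14.2%, 47.2% and 16.0%. On TPM rescaled over protein-coding genes the number of the 9 genes called was 1 in the XX and 5 in the XY transition, 1 for Tet3-/- against XX EpiLC, 0 and 2 for XX against XY (mESC and EpiLC), and 1 for the difference XX minus XY. With only the groups compared it was 1 for Tet3-/- against XX EpiLC, and 0 and 7 for XX against XY (mESC and EpiLC). With no filter it was 5 in the XX and 6 in the XY transition, 3 for XX against XY EpiLC and 1 for the difference XX minus XY. With XX mESC 2 and Tet3-/- EpiLC #3 left out together, added after the data were seen, it was 1 for Tet3-/- against XX in mESC, 2 for the difference Tet3-/- minus XX and 4 for the difference XX minus XY. The cause of these shifts was not tested. For the other alternatives, here and below, no share of all genes called is given, so those counts do not set the 9 genes apart.

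With each library left out in turn the number called was 5 to 6 in the XX, 5 to 7 in the XY (5 without XY mESC 1) and 6 to 8 in the Tet3-/- transition. It was 0 to 1 (mESC) and 1 to 2 (EpiLC) for Tet3-/- against XX, 2 to 3 and 3 to 3 for XX against XY, 0 to 0 for the difference Tet3-/- minus XX and 1 to 2 for the difference XX minus XY.

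Same-numbered wild-type mESC and EpiLC libraries did not all deviate together (correlations from -0.0522 to 0.274), and nothing in the labels ties them, so they were not treated as pairs. With a replicate block, which also pairs the Tet3-/- mutants by number, the number called was 6 (XX), 7 (XY) and 7 (Tet3-/-) for the transitions, 0 and 2 for Tet3-/- against XX, 3 and 4 for XX against XY, and 0 and 2 for the differences; Atf7ip in XY cells lost its call (0.57, limma adjusted p = 0.0783) and no other call of the 9 genes changed.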
